A study of Mus musculus with 8 samples.

Results

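The miR-30 family was followed across the stroma, mature ducts and terminal end buds (TEBs) of the pubertal mouse mammary gland. The members were the miRNAs named mmu-miR-30a, mmu-miR-30b, mmu-miR-30c, mmu-miR-30d and mmu-miR-30e on the array (written here without the species prefix), leaving out their starred partner strands, which made 5 of the 611 mouse miRNAs measured. TEBs, the growing tips of the ductal tree, were hybridised on 3 arrays, mature ducts on 2 arrays and distal stroma on 3 arrays. All groups came from mammary glands 2-5 of female FVB/n mice, 5 weeks old and carrying a β-actin-GFP reporter, with no treatment or gene deletion named in the labels, and the ubiquitous GFP served only to make the tissue visible for micro-dissection. From each tissue 100 ng of total RNA was labelled with the dye Cy3-pCp and read in a single colour. The labels number the replicates without saying whether they came from separate mice, so the p-values measure the spread between these samples, which may be technical.

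A miRNA represses the messenger RNAs that pair with its seed, the bases near its 5′ end, so miRNAs with the same seed share most of their predicted targets. The miR-30 family has been studied in breast tumour-initiating cells, where its loss goes with self-renewal and where the SUMO-conjugating enzyme UBC9 and the integrin ITGB3 are known targets. It is also known to favour the differentiation of fat cells and to be active in many epithelial and mesenchymal tissues.

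The mature sequences are shown because the members are so alike that an array probe may bind more than one of them. They were taken from RefSeq (GRCm38.p6), which gave a sequence for 3 of the 5 members, miR-30a, miR-30c and miR-30e, and for miR-384-5p, a miRNA outside the family by name. Each is written 5′ to 3′ with the seed (bases 2 to 8) in capitals.
miR-30a: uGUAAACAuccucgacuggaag
miR-30c: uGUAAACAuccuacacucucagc
miR-30e: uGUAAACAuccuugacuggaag
miR-384-5p: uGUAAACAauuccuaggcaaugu
All 4 carry the seed GUAAACA, and no other of the 1679 mature names in the RefSeq table held it. As that table lacks miR-30b and miR-30d, their seeds could not be compared here. Counted from 1 at the 5′ end, miR-30e differed from miR-30a by the single change C13U over 22 aligned bases. miR-30c differed from miR-30a by 5 changes over the same 22 bases, C13A, G14C, G18C, G19U and A20C, all of them beyond the seed. The array's probes for these members cannot be taken as fully separate measurements, and no value here tells how much signal they share.

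The family is encoded at several places in the genome. Mir30a (mature strand at chr1:23272274-23272295, plus strand) and Mir30c-2 (chr1:23291714-23291736, plus strand) lay 19361 bases apart between their hairpins. Mir30c-1 (chr4:120769584-120769606, minus strand) and Mir30e (chr4:120772660-120772681, minus strand) lay 2983 bases apart, both within the bounds of the gene Nfyc, a subunit of the NF-Y transcription factor. Mir30b and Mir30d were each other's nearest miRNA genes. Mature miR-30c is made from both of its loci, and its signal cannot be assigned to either.

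Between 142 and 169 of the 611 miRNAs were detected per array, and the summed signal of an array was 54239 to 88828 units. The signals below were scaled so that the arrays had the same 75th percentile over the 108 miRNAs detected on all 8 arrays, and are given in these scaled array units. As the yield of a probe differs from miRNA to miRNA, no member was ranked above another by its signal. The labelled tissues were checked against miRNAs that mark epithelium, such as the miR-200 family. The 10 listed epithelial miRNAs were detected on no stroma array, with a summed signal of 2.71 to 16.6 there against 2059 to 2193 in TEBs and 2161 to 2391 in ducts.

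In the scaled signals every member had its highest tissue mean in the stroma, and 4 of them had their lowest in TEBs. The order of stroma and ducts depended on the scaling. With no scaling the log2 difference of ducts from stroma was 0.37 for miR-30a and 0.19 for miR-30b. It was 0.22 for both miR-30c and miR-30d, and -0.25 for miR-30e. The family took 1.64%, 1.75% and 1.40% of the summed signal of the 3 stroma arrays, 1.35% and 1.35% of that of the duct arrays, and 1.08%, 1.02% and 0.990% of that of the TEB arrays. These shares set each array against its own summed signal, which is itself a scaling, and the tissues did not overlap in them. miR-30a gave the largest part of each sum. The unscaled sums of the members did overlap. They were 1177, 1097 and 758 in stroma, 1200 and 1168 in ducts, and 701, 778 and 643 in TEBs. In such bulk tissue, fewer cells that carry a miRNA and less of it per cell cannot be told apart.

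miR-30a gave signals of 426.7, 496.5 and 436.0 on the TEB arrays, 594.3 and 625.2 on the duct arrays, and 753.9, 845.3 and 592.6 on the stroma arrays. Its TEB arrays lay below all others, while its stroma array of replicate 3, at 592.6, lay just below both duct arrays. The mean of the TEB arrays was 453 ± 37.9 (SD, n = 3), that of the duct arrays 610 ± 21.8 (SD, n = 2) and that of the stroma arrays 731 ± 128 (SD, n = 3). miR-30c, whose sequence departs most from miR-30a among the 3 printed members, had the same order with wider steps. It gave 45.5, 46.8 and 43.9 in TEBs, 71.6 and 73.0 in ducts, and 95.7, 114.0 and 78.6 in stroma. No array of one tissue reached into the range of another, and the means were 45.4 ± 1.45 (SD, n = 3), 72.3 ± 0.97 (SD, n = 2) and 96.1 ± 17.7 (SD, n = 3).

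miR-30d was measured at 125.7, 96.1 and 96.2 in TEBs, 133.5 and 128.8 in ducts, and 167.1, 166.0 and 184.5 in stroma. The tissues again did not overlap, although the first TEB array came close to the ducts. The means were 106 ± 17.0 (SD, n = 3), 131 ± 3.31 (SD, n = 2) and 173 ± 10.4 (SD, n = 3). miR-30e departed from this order. It gave 99.5, 87.9 and 88.8 in TEBs, 87.3 and 95.2 in ducts, and 170.6, 172.3 and 154.8 in stroma, so that both epithelial fractions lay together and well below the stroma. Its means were 92.0 ± 6.49 (SD, n = 3), 91.2 ± 5.64 (SD, n = 2) and 166 ± 9.68 (SD, n = 3).

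miR-30b was near the limit of detection. It was called detected on 4 of the 8 arrays and on every array of no tissue, so it was left out of the limma tests. Its signals were 8.88, 8.92 and 7.17 in TEBs, 13.3 and 14.7 in ducts, and 15.7, 19.8 and 21.2 in stroma, in the order TEB, duct, stroma without overlap. The scanner software's error was 31% to 74% of these signals, which leaves the order of miR-30b weakly measured.

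**Figure D1:**
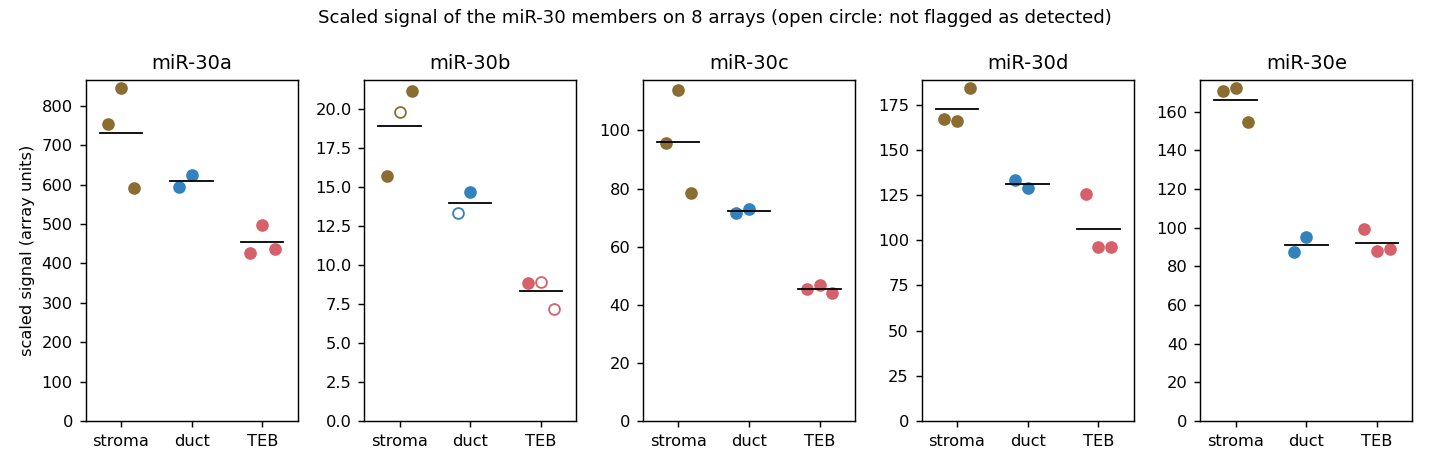
Scaled signal (array units, linear axis from 0, a separate scale for each member) of the 5 miR-30 members, with 1 point per array, a line at the mean of each tissue and open circles for arrays on which the miRNA was not detected. miR-30a, 30b, 30c and 30d step down from stroma to duct to TEB, whereas the duct and TEB arrays of miR-30e share one range.

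The comparison of TEBs with stroma asked how the growing tips differ from the distal stroma. All 4 tested members were lower in TEBs. limma, fitted to all 8 arrays, gave log2 differences of -1.07 ± 0.14 (SE) for miR-30c (adjusted p = 0.0011), -0.85 ± 0.095 for miR-30e (adjusted p = 0.00052), -0.71 ± 0.13 for miR-30d (adjusted p = 0.0038) and -0.68 ± 0.15 for miR-30a (adjusted p = 0.0082). These are signals 2.09-fold, 1.80-fold, 1.64-fold and 1.60-fold higher in the stroma, and no TEB array overlapped a stroma array in any of them. Over all 167 miRNAs tested, 64.7% differed between these tissues, 44.3% being higher in stroma, and 48.5% were higher in stroma without overlap. The median difference was -0.78 over the 4 members and -0.28 over all 167 miRNAs, and 28.7% of the 167 lay at or below the members' median. Counted from the lowest difference, miR-30c ranked 35, miR-30e 42, miR-30d 53 and miR-30a 55. The differences had the same sign within each row of arrays on the slide. In rows 1 and 2 they were -0.71 and -0.70 for miR-30a and -1.05 and -1.11 for miR-30c. For miR-30d they were -0.60 and -0.86, and for miR-30e -0.87 and -0.88. Row 1 held 2 TEB arrays and 1 stroma array, and row 2 held 1 TEB array and 2 stroma arrays. All 4 members stayed called when any single array was left out.

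These 4 calls depended on the scaling. With the percentile taken over all 611 mouse miRNAs, where it fell among weak signals of 11.5 to 29.9 units, the differences were -0.28 for miR-30a, -0.67 for miR-30c, -0.32 for miR-30d and -0.46 for miR-30e, and none passed (adjusted p of 0.087 for miR-30c to 0.48 for miR-30a). In that scaling 66 of the 167 miRNAs passed. With no scaling, or with the median of the detected miRNAs, miR-30c and miR-30e passed and miR-30a and miR-30d did not. The direction was the same in every scaling. The members' median lay -0.51 from the median of all tested miRNAs, and -0.69 with quantile normalization. Outside quantile normalization this distance is close to fixed by design, as a single factor per array shifts all miRNAs above the floor alike.

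The comparison of ducts with stroma set the mature epithelium against the distal stroma, and miR-30e was the only member called. It was 1.82-fold lower in ducts, with a log2 difference of -0.86 ± 0.11 (SE, adjusted p = 0.0017), and ranked 14 of 167 from the lowest difference. The differences of miR-30c and miR-30d, -0.39 ± 0.16 (adjusted p = 0.13) and -0.39 ± 0.14 (adjusted p = 0.11), did not pass, and neither did that of miR-30a, -0.25 ± 0.17 (adjusted p = 0.35), whose arrays overlapped. The count of 1 called member of 4 stood against 21.6% of all tested miRNAs, with 12% called higher in stroma, and is near that background. The arrays of 3 members were higher in stroma without overlap, against 22.8% of all miRNAs. Without duct replicate 1 the background fell from 36 called miRNAs to 22. The members' median was -0.39 and that of all miRNAs -0.09, with 24.0% of all tested miRNAs at or below the members' median. miR-30e was also the one member higher in stroma than in both epithelial fractions with both tests passed, a pattern found in 11.4% of the miRNAs tested. Within the rows of arrays its difference was -0.97 (1 duct and 1 stroma array) and -0.78 (1 duct and 2 stroma arrays). It did not pass with the percentile over all mouse miRNAs (-1.02, adjusted p = 0.089) or with no scaling (-0.25, adjusted p = 0.37). Without the first TEB array, which enters the shared estimate of the spread, miR-30d passed as well (adjusted p = 0.028), and without stroma replicate 3 miR-30c did (-0.53, adjusted p = 0.024).

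The comparison of TEBs with ducts sets the invading tip against the mature epithelium behind it. Here miR-30c was 1.59-fold higher in ducts, with a log2 difference of -0.67 ± 0.16 (SE, adjusted p = 0.025). miR-30a at -0.43 ± 0.17 (adjusted p = 0.083) and miR-30d at -0.32 ± 0.14 (adjusted p = 0.12) did not pass, and miR-30e at 0.01 ± 0.11 (adjusted p = 0.94) lay at 0. Thus 1 of 4 members was called, near the background of 24.6% called among all tested miRNAs, or 13.2% called higher in ducts. That background itself fell from 41 called miRNAs to 5 without TEB replicate 2, 7 without duct replicate 1 and 25 without duct replicate 2. The arrays of 3 members were higher in ducts without overlap, which was so for 43.1% of all miRNAs. The members' median was -0.38 and that of all miRNAs -0.10, with 33.5% of all tested miRNAs at or below the members' median.

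The miR-30c call was lost under 14 of 24 other settings. Within the rows of arrays the difference was -0.63 (2 TEB arrays and 1 duct array) and -0.73 (1 array of each). With the row as a covariate, however, miR-30c had an adjusted p of 0.051. It did not pass without any one of the 5 epithelial arrays, with adjusted p of 0.058, 0.065 and 0.052 without TEB 1, 2 and 3 and of 0.12 and 0.074 without duct 1 and 2, while the difference stayed between -0.69 and -0.65. It did not pass under the other scalings that align the arrays either, at -0.12 (adjusted p = 0.76) with the percentile over all mouse miRNAs, -0.41 (adjusted p = 0.074) with quantile normalization and -0.53 (adjusted p = 0.051) with the median of the detected miRNAs. With the all-mouse percentile the differences of miR-30a and miR-30d turned to 0.12 and 0.23. Without the first TEB array miR-30d passed (-0.45, adjusted p = 0.031), and without stroma replicate 3 miR-30a did (-0.43, adjusted p = 0.040).

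**Figure D2:**
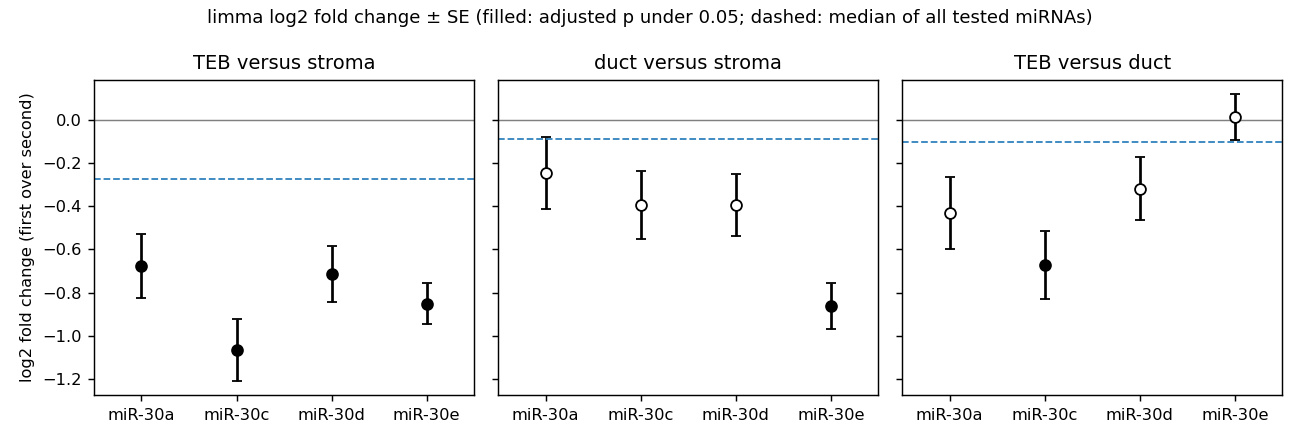
limma log2 differences (points) with their SE (bars) for the 4 tested members in each pair of tissues, filled where the adjusted p was under 0.05, with the median of all 167 tested miRNAs as a dashed line. All 4 members are filled and below the line for TEB versus stroma, miR-30e alone is filled for duct versus stroma, and miR-30c alone for TEB versus duct.

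Scaling an array by a single factor shifts all miRNAs of a comparison alike, apart from those at the floor, whereas quantile normalization does not: between TEBs and ducts it moved miR-30c from -0.67 to -0.41 but miR-30a from -0.43 to -0.60. The median over all tested miRNAs was -0.28 for TEB versus stroma in the main scaling, 0.12 with the percentile over all mouse miRNAs, 0.21 with the median of the detected miRNAs, -0.07 with quantile normalization and -0.03 with none. Of the 108 miRNAs called between TEBs and stroma in the main scaling 34 were higher in TEBs, against 38 of 66 with the all-mouse percentile, 59 of 95 with the median of the detected and 41 of 82 with no scaling. Between TEBs and ducts 19 of 41 were higher in TEBs in the main scaling, against 24 of 30 with the all-mouse percentile, 20 of 33 with the median of the detected, 30 of 42 with quantile normalization and 12 of 75 with none. Between ducts and stroma 16 of 36 were higher in ducts in the main scaling, against 11 of 19 with the all-mouse percentile, 36 of 44 with the median of the detected and 52 of 56 with no scaling. The members' median stayed below that of all miRNAs in every scaling, at a distance of -0.28 to -0.27 between TEBs and ducts and of -0.33 to -0.28 between ducts and stroma. Only quantile normalization could have changed this distance much.

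**Figure D3:**
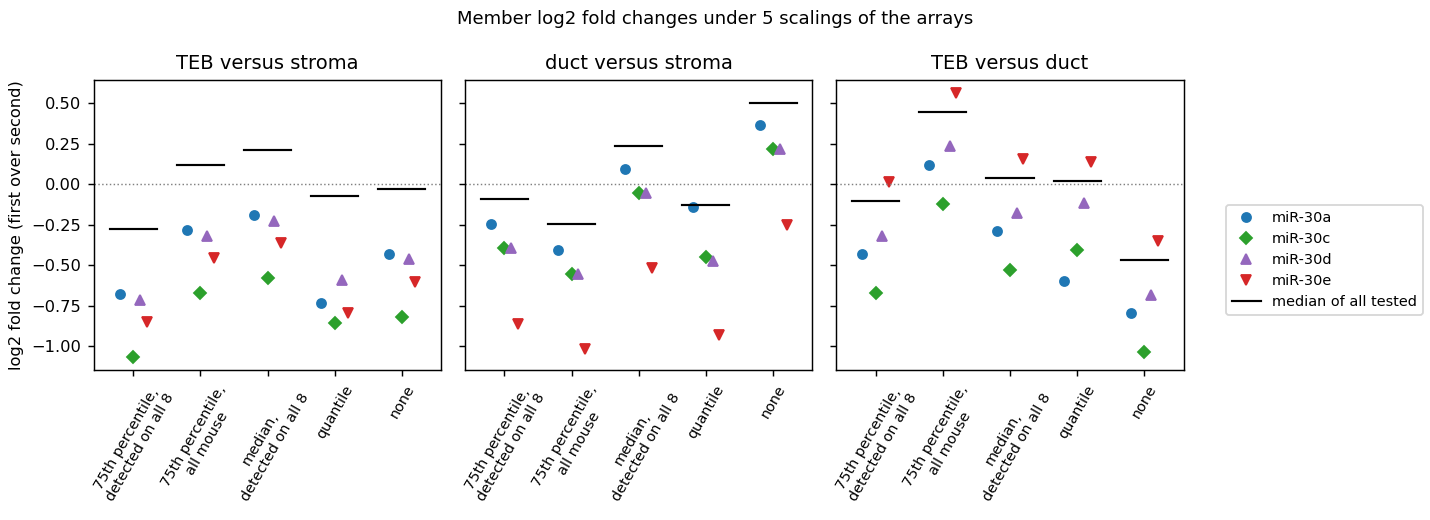
log2 differences of the 4 tested members (symbols) and the median of all 167 tested miRNAs (black lines) under 5 scalings of the arrays, for each pair of tissues. Except under quantile normalization the members must keep their order and shift nearly together with the line. Under quantile normalization, too, miR-30e is the lowest of the 4 between ducts and stroma and the highest between TEBs and ducts.

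Ratios between members on the same array do not depend on a single scaling factor per array, but quantile normalization can change them. For miR-30a, miR-30c and miR-30d the log2 ratio to miR-30e was higher on both duct arrays than on any of the other 6 arrays, which was so for 28% of the 107 other miRNAs detected on all 8 arrays. The ratio of the weakly measured miR-30b was also highest on both duct arrays. For miR-30c over miR-30e the ratio was -0.29 and -0.38 in ducts, -1.13, -0.91 and -1.02 in TEBs, and -0.83, -0.60 and -0.98 in stroma. For miR-30a over miR-30e it was 2.77 and 2.71 in ducts, 2.10, 2.50 and 2.30 in TEBs, and 2.14, 2.29 and 1.94 in stroma. The ducts thus held less miR-30e relative to its relatives than either of the other tissues, a pattern seen after the values were known and given as a description.

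Between miR-30a and miR-30c the ratio fell in a different order. It was 3.23, 3.41 and 3.31 in TEBs, 3.05 and 3.10 in ducts, and 2.98, 2.89 and 2.91 in stroma. No tissues overlapped in these values. The order of ducts and TEBs was not kept under all settings. With quantile normalization the log2 difference of TEBs from ducts was -0.60 for miR-30a and -0.41 for miR-30c, so the mean ratio was higher in ducts. The same held in the deposited table of log2 values (-0.57 and -0.34) and with a normexp background correction (-0.38 and -0.31). When the 5 epithelial arrays were set against the 3 stroma arrays for all 10 member pairs, 0 pairs passed a two-sided exact permutation test after Benjamini-Hochberg adjustment. The smallest unadjusted p, 0.036, was that of miR-30a over miR-30c, the only pair under 0.05 (difference 0.29, adjusted p = 0.32). Such a design cannot go below 0.018, so a lone pair among the 10 could not have passed the adjustment, and the count of 0 says little. TEBs against ducts cannot go below 0.1. Of the 6 pairs without miR-30b, 5 did not overlap between TEBs and ducts, against 59.4% of all pairs of miRNAs detected on all 8 arrays.

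**Figure D4:**
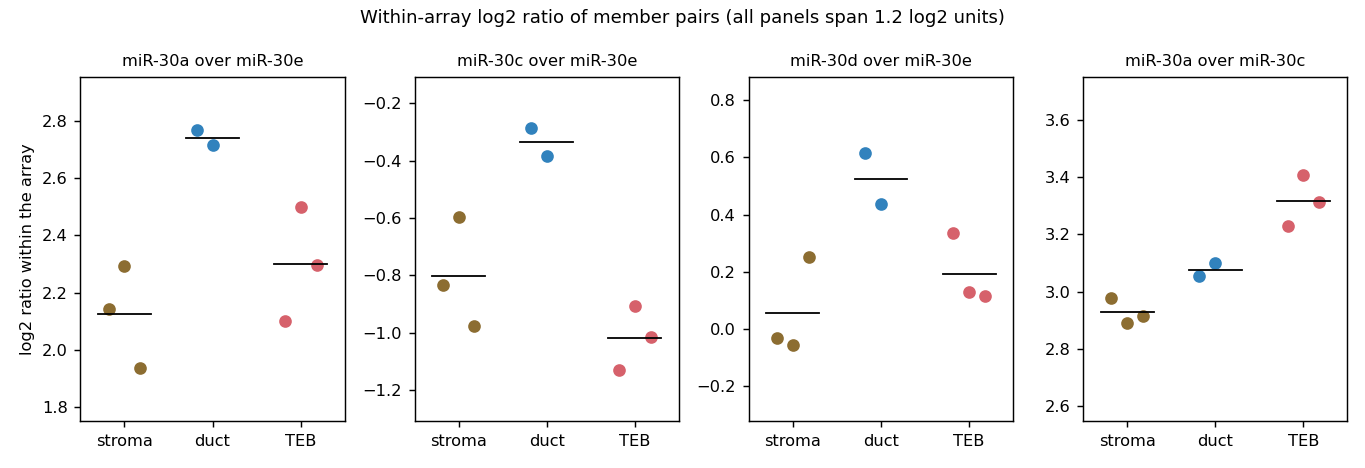
Within-array log2 ratios of 4 member pairs, with 1 point per array, a line at each tissue mean and axes that span the same 1.2 log2 units. The ducts are the highest tissue in the 3 ratios to miR-30e. In this main scaling miR-30a over miR-30c steps up from stroma to duct to TEB.

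Over the 8 arrays the log2 signals of the members correlated with r of 0.73 (miR-30a with miR-30d) to 0.98 (miR-30a with miR-30c), a description over arrays that share their tissue and their scaling factor. After the tissue means were removed the range was -0.55 for miR-30a with miR-30d to 0.94 for miR-30a with miR-30c. miR-30a and miR-30c each have a hairpin in the chromosome 1 cluster. miR-30c and miR-30e, which each have one in the chromosome 4 cluster, correlated with r of 0.80, and of 0.55 after the tissue means were removed. For the neighbours miR-30b and miR-30d these values were 0.92 and 0.42. After the tissue means were removed, the pairs without a shared cluster ranged from -0.55 to 0.38 (miR-30a with miR-30e). Whether a shared cluster bears on these values was not tested.

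The hairpins also yield a partner strand, written with a star, which is usually the less abundant product. Of the 6 partner strands 5 were on the array, and those that could be tested are shown for comparison with their own arms, again with bases 2 to 8 in capitals.
miR-30a*: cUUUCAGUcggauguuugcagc
miR-30e*: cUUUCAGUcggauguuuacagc
They differ by G18A and carry a different seed from the family. miR-30a* gave 41.9, 40.6 and 30.9 in TEBs, 41.9 and 44.6 in ducts, and 49.9, 55.2 and 43.7 in stroma. Its order of means was that of miR-30a, but the log2 differences did not pass the test, at -0.40 between TEBs and stroma (adjusted p = 0.057), -0.21 between TEBs and ducts (adjusted p = 0.38) and -0.19 between ducts and stroma (adjusted p = 0.52). miR-30e* was detected on all 3 TEB arrays at 8.34, 11.5 and 11.6, on 1 of 2 duct arrays with signals of 0.60 and 9.97, and on 2 of 3 stroma arrays with signals of 13.0, 15.5 and 8.99. None of its 3 comparisons passed (adjusted p of 0.17 to 0.82). miR-30b*, miR-30c-1* and miR-384-5p were detected on no array, and miR-30c-2* on 1 TEB array alone.

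The profile of the family, taken as the mean of the 5 members' centred log2 signals, was most like those of miR-29a (r = 0.993), miR-26b (0.975), miR-196b (0.974), miR-139-5p (0.972) and miR-10a (0.970) among 104 other miRNAs detected on all 8 arrays. These are correlations over 8 arrays that share tissues and scaling. The weakly measured miR-30b counts in the profile like the other members. Its log2 difference between TEBs and stroma, -1.18, was the largest of the 5. The miR-29 family, which is known to repress collagens, was called lower in TEBs than in stroma for 3 of 3 members, with a median difference of -0.80, and lower in ducts for 1 of 3, beside 44.3% and 12% of all tested miRNAs. Both tested members of the miR-26 family were called lower in TEBs, with a median of -0.67. Of the 9 let-7 and miR-98 members, a family that rises with differentiation, 4 were called lower in TEBs than in stroma, near the share over all miRNAs, and 2 in ducts than in stroma, with medians of -0.16 and -0.21. Between TEBs and ducts none of these 3 families had a called member.

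Markers of other cell types moved with the same tissues, and their counts stand beside 44.3% of all 167 miRNAs called lower in TEBs than in stroma, 34 of 167 called higher, and 12% called lower in ducts than in stroma. The 4 miRNAs linked to fat cells, such as miR-193b and miR-378, were all called lower in TEBs and in ducts than in stroma, with summed signals of 715 to 911 in TEBs, 654 to 804 in ducts and 1577 to 2000 in stroma. The endothelial miR-126 pair summed to 1315 to 1650 in TEBs, 1927 to 2061 in ducts and 2765 to 3863 in stroma, and its 1 tested miRNA was called higher in stroma than in either TEBs or ducts. The 3 red cell miRNAs were all called lower in TEBs than in stroma, at 1385 to 1923 against 2018 to 3622, and summed to 2617 to 3320 in ducts. Leukocyte miRNAs summed to 296 to 450 in TEBs, 361 to 384 in ducts and 563 to 679 in stroma, with 1 of 2 called lower in TEBs and the defining miR-142-3p not called. Fibroblast and smooth muscle miRNAs went mostly the other way, with 3 of 4 called higher in TEBs than in stroma and sums of 3160 to 3779 against 2467 to 2964. The other 1, miR-143, was called lower in TEBs (log2 difference -0.40). Between ducts and stroma 2 of the 4 were called higher in ducts and 0 lower, beside 16 of 167 called higher in ducts. Of the 2 tested skeletal muscle miRNAs 0 were called by limma in any comparison, with miR-133a between TEBs and ducts the only unadjusted p under 0.05 (log2 difference -1.16, unadjusted p = 0.024). The part of these cell types in the levels of the miR-30 family was not tested.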

How the data were processed

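For 8 single-colour Agilent mouse miRNA arrays, the authors deposited each miRNA's total gene intensity as the scanner software gave it, with its error and a detection flag (Agilent Feature Extraction 9.5.3, per the submitters' processing notes). These intensities are summed over a miRNA's probes with the background subtracted and are not normalized between arrays. The authors also deposited a table of log2 values with the same highest value on every array, 16.5112. Its normalization is not given in the sources used here, and it served only as an alternative.

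The tissue named in the labels set the groups. Control and viral probes were left out. As under 50% of the miRNAs were detected, each array was scaled to a common 75th percentile over the 108 mouse miRNAs detected on all 8 arrays by factors between 0.75 and 1.36. A floor of 1 was applied before the log2. The linear models of limma 3.58.1 (R 4.3.3), with moderated variances, covered all 8 arrays and the 167 miRNAs that at least 1 tissue had detected throughout. Benjamini-Hochberg adjustment was done separately for each of the 3 comparisons, and an adjusted p under 0.05 was called. The procedure was tested on simulated data. The slide row was read from the array's position. The number of arrays limits the precision.

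Named in the text were the 5 members, their partner strands, miR-384-5p and the 5 other miRNAs nearest to the family's mean profile, with other families and cell type markers given as counts and sums. miR-133a was named after its value was seen, and markers named as examples belong to their lists. The members, lists and tests were chosen with earlier results of these data known. The alternatives were other scalings, low-value and filter settings, normexp, the series table, the slide row, the replicate block, other tests and leaving out each array.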

Additional observations from a re-analysis of the deposited data

How the results depend on the processing

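Counts of called members depended on the scaling and on other settings. Between TEBs and ducts (1 called) the count was 0 with the percentile over all mouse miRNAs, quantile normalization, the median of the detected miRNAs, normexp, no detection filter, the slide row, a minimum change of 2-fold and the deposited table, 3 with no scaling, 2 with the methods' t-test at unadjusted p, and 0 to 2 without single arrays. Between TEBs and stroma (4 called) it was 0 with the all-mouse percentile, 2 with no scaling, 2 with the median of the detected, 1 with the 2-fold minimum and 4 without any single array. Between ducts and stroma (1 called) it was 0 with the all-mouse percentile, no scaling and the 2-fold minimum, 3 with normexp, 2 with only the tissues compared in the fit, 2 with the methods' t-test at unadjusted p, and 1 to 2 without single arrays. Without a filter the miRNAs at the floor have no variance and the eBayes estimate is unreliable. Signs turned for miR-30a and miR-30d between TEBs and ducts with the all-mouse percentile (0.12 and 0.23), for miR-30e there with no scaling (-0.35) and without TEB 1 or duct 1 (-0.046 and -0.052, in a range of -0.052 to 0.075 without single arrays), for miR-30a, miR-30c and miR-30d between ducts and stroma with no scaling (0.37, 0.22 and 0.22), and for miR-30a there with the median of the detected (0.10). The sign of miR-30b, which was left out of the limma tests, also turned between ducts and stroma with no scaling, from -0.42 to 0.19. The cause of these changes was not tested. Fits without a duct array assume that the lone duct array varies like the other groups.

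Arrays with the same replicate number did not deviate together on average (mean r of -0.10 over 7 pairs against 0.05 over 14 other pairs). The r values overlapped, at -0.51 to 0.36 and -0.50 to 0.51. Deviations from a tissue mean must cancel within the few arrays of that tissue, which ties these r values to each other. The check therefore cannot tell whether the number pairs the arrays. With the replicate block 0 members were called between TEBs and ducts (miR-30c -0.59, adjusted p = 0.071), and 16 miRNAs in place of 41. The block changed no other member's call. Among all 167 miRNAs, the 41 calls between TEBs and ducts became 75 with no scaling, 71 with 16 added, 27 with normexp, 23 with the 2-fold minimum, 12 with the adjusted t-test, 5 without TEB 2, 7 without duct 1 and 25 without duct 2, and were 18 of 611 tested without a filter. The 108 between TEBs and stroma became 66 with the all-mouse percentile and 60 with the 2-fold minimum. The 36 between ducts and stroma became 19, 56, 69 and 17 with the all-mouse percentile, no scaling, normexp and the 2-fold minimum, and 22 without duct 1.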
